A study of Mus musculus with 15 samples.

Results

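The genes described here are 48 developmental homeobox and Pax genes outside the Hox clusters, out of 31829 gene names on the array. They were chosen by name, as developmental regulators of the kind held by Polycomb, and each was read by the probe with the highest mean signal among those kept for its name. The RNA came from mouse embryonic stem (ES) cells with either of 2 short hairpin RNAs, sh4 or the control shCTR. The 4 groups were sh4 with 1 µM retinoic acid for 72 hours (3 arrays, numbered 1, 3 and 4), shCTR with the same retinoic acid (4 arrays), untreated sh4 (4 arrays) and untreated shCTR (4 arrays). Each sample was hybridised alone to a 1-colour Agilent array. The labels do not name the target of sh4, and the series title names Phf19. All of sh4 is 1 hairpin, no second hairpin against the same gene was analysed here, and the labels leave the ES cell line unnamed. The samples are called biological replicates, with no word on separate cultures, so the p-values measure the spread between these samples, which may be technical. No time is given for the untreated cells, so an effect of retinoic acid cannot be told apart from one of 72 hours of culture.

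Homeobox and Pax genes encode transcription factors that bind DNA through a homeodomain, a paired domain or both, and their combined expression sets the identity of embryonic regions and organs. In ES cells many of them are held at low levels by Polycomb repressive complex 2 (PRC2), which methylates histone H3 at promoters rich in the dinucleotide CG. Phf19 is an accessory subunit of PRC2 that binds histone H3 methylated at another lysine. Retinoic acid, a derivative of vitamin A, enters the nucleus, binds receptors that sit on DNA and starts differentiation.

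Each level below is a probe's signal as a percent of the 75th percentile signal of its own array, so 100% is a bright probe. Levels of different genes come from different probes and cannot be set against each other. Differences are log2 differences between group means ± standard error, with two-sided limma tests adjusted by the Benjamini-Hochberg method over all 25088 genes tested. A gene "rose" or "fell" only where the adjusted p was under 0.05. The 75th percentile lay between 1509 and 1911 intensity units, an array had 73.8% to 79.3% of its probes well above background, and the dimmest such signal on each array stood at 0.364% to 0.566%. Phf19 averaged 6.82% in sh4 with retinoic acid against 12.5% in shCTR with retinoic acid, and 16.9% in untreated sh4 against 56.1% in untreated shCTR (log2 differences −0.88 ± 0.09 and −1.73 ± 0.09). The 9 ES cell markers summed to 31900 to 35500% in untreated sh4 and 35600 to 43600% in untreated shCTR, so the markers that define ES cells were present in both. With retinoic acid they summed to 5100 to 6240% in sh4 and 9410 to 10200% in shCTR. Such sums follow the brightest probes, and Dppa5a made up most of the treated ones, with means of 5000% in sh4 and 8670% in shCTR. All 9 ES cell markers fell in sh4 and 8 fell in shCTR, Nanog by 5.72 ± 0.26 and 5.07 ± 0.24. Several members, Lhx1, Pax3, Nkx6-2, Lhx6, Nkx2-2, Lmx1b and Dlx3 among them, read higher on slides 1 and 2 than on slides 3 and 4. They did so in every group, though sh4 with retinoic acid has no array on slide 4. Values within slides are therefore given for some genes below.

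Of the 48 members, 44 passed the filter on dim probes, which asked for 3 or more arrays well above background in some group, and 37 were well above background on all 15 arrays. Untreated cells already gave a measurable signal for most of them. Pax9, Dlx1, Dlx6, Six3, Six6, Irx5 and En1 were well above background on no untreated array. Dlx6, Six6, En1 and Emx2 failed the filter and were not tested. Six6, a factor of the eye and pituitary, and En1, of the midbrain-hindbrain boundary, were well above background on no array of any group. Dlx6, of the jaw and forebrain, was so on 2 of 3 arrays of sh4 and 1 of 4 of shCTR with retinoic acid. Emx2, of the cerebral cortex and urogenital tract, was so on 1 of 3 and 2 of 4 of those arrays, on 1 of 4 untreated sh4 arrays and on no untreated shCTR array.

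With retinoic acid most of the 44 tested members rose, and a few fell steeply. In sh4, 27 rose and 6 fell, where 27.1% of all genes tested rose and 31.6% fell. In shCTR, 23 rose and 7 fell, where 28.9% of all genes tested rose and 33.5% fell. Pax9, Dlx1, Six3 and Irx5 passed the filter only through treated groups, so a rise was the only likely call for them. They count among the rises, shares and medians of both hairpins, and the same filter applied to all genes tested. Nkx6-3 and Pax5 passed it only through untreated groups, so a fall was the only likely call for them. Nkx6-3 counts among the falls of both hairpins, and Pax5 was not called. The members' median log2 difference was 0.81 in sh4 and 0.64 in shCTR, beside −0.12 over all genes in both. At least 2-fold rises numbered 20 in sh4 (14.5% of all genes) and 17 in shCTR (16.2% of all genes), counted on fitted differences, and at least 2-fold falls 3 in sh4 (11% of all genes) and 5 in shCTR (11.7% of all genes). Dlx1 and Six3 in sh4, and Dlx1 in shCTR, had no untreated array above background and bounds under 2-fold, and without them 18 and 16 rises remain. With such genes at their bounds the medians were 0.69 in sh4 and 0.55 in shCTR. So 61.4% of the members rose in sh4 and 52.3% in shCTR, and the share that changed in either direction, 75% in sh4 and 68.2% in shCTR, lay closer to the 58.6% and 62.5% of all genes. In bulk RNA, fewer cells of a type and less RNA per cell cannot be told apart. Within slides the members' median was 0.89, 0.64 and 0.99 in sh4 and 0.53, 0.38, 0.72 and 0.71 in shCTR. All 33 calls in sh4, and 29 of 30 in shCTR, had 1 sign on every slide, with Six3 the exception. The calls rest on the same arrays, so such agreement follows largely from the selection, and its share over all genes was not counted.

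Markers of other cell types moved with the same treatment. All 9 markers of extraembryonic endoderm rose in both hairpins and summed to 869 to 979% in sh4 and 2450 to 2750% in shCTR with retinoic acid, against 30.3 to 32.8% in untreated sh4 and 71.5 to 80.5% in untreated shCTR. Of these markers, Afp and Ttr were well above background on no untreated array, and Apoa1 on 2 of 4 in each hairpin. Sox17, Gata4, Gata6, Foxa2, Dab2 and Sox7 were so on every untreated array. Of 10 fibroblast markers, 9 rose and 1 fell in each hairpin, with sums of 2530 to 2700% in sh4 and 1740 to 2360% in shCTR with retinoic acid, against 137 to 145% and 252 to 285% untreated. Acta2 made up most of the treated sums, with means of 1690% in sh4 and 1190% in shCTR. Neural markers divided, with 2 of 9 up and 3 down in sh4 and 3 up and 4 down in shCTR, and of 4 neural crest markers 2 rose and 2 fell in each. Of 6 mesoderm markers measured, 1 rose and 4 fell in sh4, and 1 rose and 3 fell in shCTR. All 6 trophectoderm markers rose in shCTR, and 4 rose and 2 fell in sh4, with sums of 16800 to 19300% in sh4 and 17300 to 20200% in shCTR with retinoic acid, against 4560 to 5610% and 268 to 419% untreated. Krt18 made up most of these sums, with means of 18100% in sh4 and 18800% in shCTR treated, and 4890% and 329% untreated. The part of these cell types in the members' changes was not tested.

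**Figure D1:**
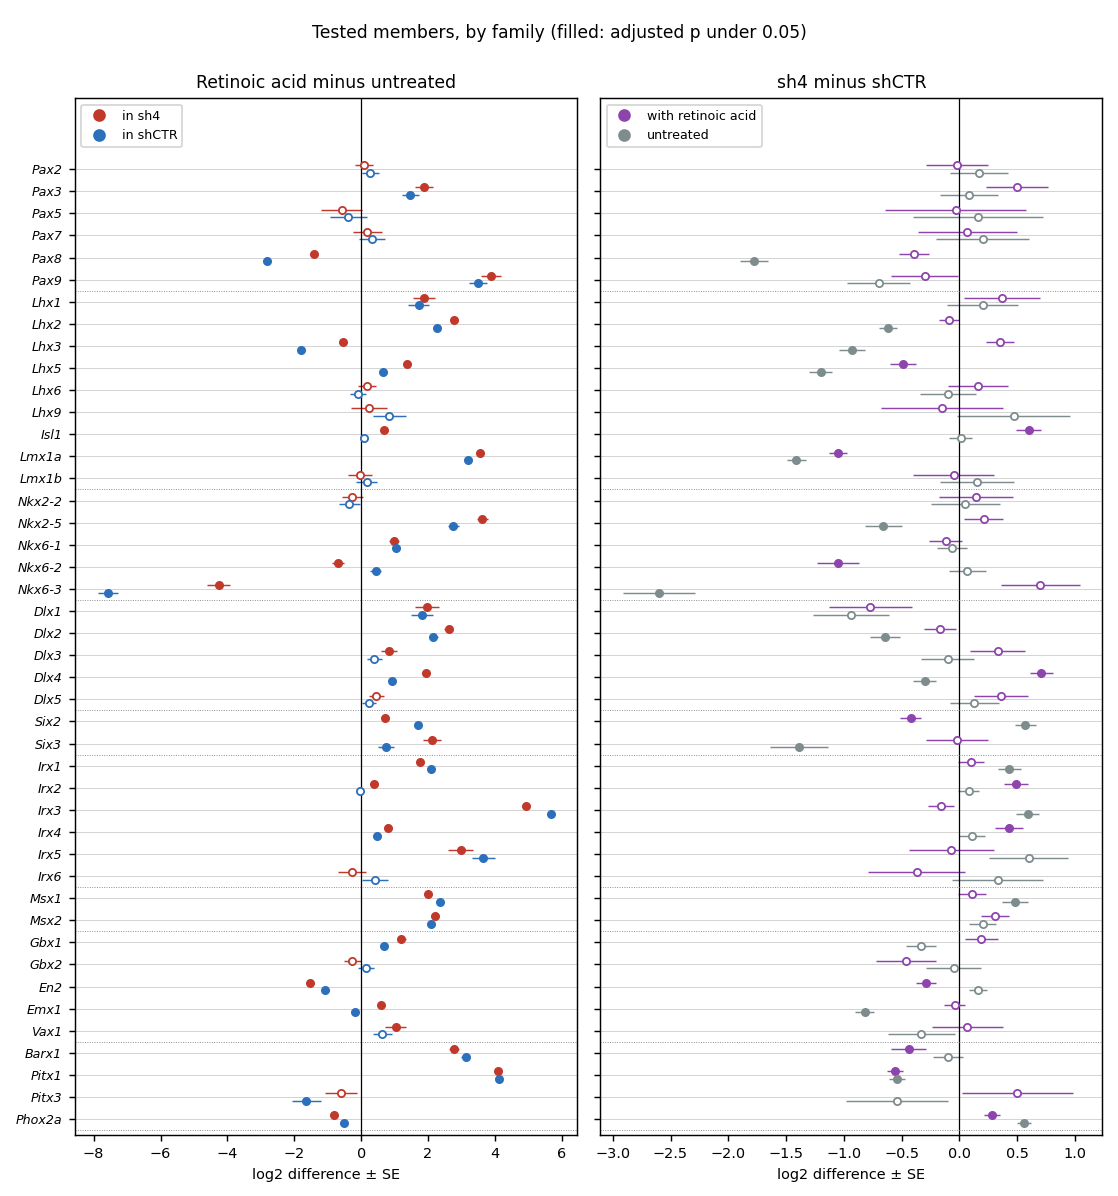
Log2 differences ± SE of the 44 tested members, grouped by family from Pax at the top to the paired-like genes at the bottom. The left panel shows retinoic acid minus untreated in sh4 (red) and shCTR (blue), the right panel sh4 minus shCTR with retinoic acid (purple) and untreated (grey), and filled points have an adjusted p under 0.05. Most points of the left panel lie right of 0, with Irx3 the farthest right and Nkx6-3 the farthest left, and the grey points of Nkx6-3, Pax8 and Lmx1a lie left of −1.

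The promoter sequences of the members show the CG-rich context in which these genes sit. RefSeq promoters (GRCm38.p6, 300 bases that span the gene's start) were matched for 35 members, with 41 promoters, and 13 were not listed (Pax3, Lhx5, Nkx6-3, Dlx3, Dlx4, Dlx5, Dlx6, Irx1, Irx5, Irx6, Gbx1, En2 and Pitx1). The median number of CG dinucleotides was 23 in 300 bases, with a range of 6 to 50, beside 7 over all 32851 promoters in the table. For the 17 promoters of members that rose in shCTR with retinoic acid it was 29, and for the other 24 promoters 21.5, which is a description with no test. Shown are Irx3, Lmx1a and Barx1, the largest rises in shCTR among listed members that were above background in every group, and Pax8, the largest fall among listed members. Each runs 5′ to 3′ along the gene's strand with every CG in capitals.
Irx3: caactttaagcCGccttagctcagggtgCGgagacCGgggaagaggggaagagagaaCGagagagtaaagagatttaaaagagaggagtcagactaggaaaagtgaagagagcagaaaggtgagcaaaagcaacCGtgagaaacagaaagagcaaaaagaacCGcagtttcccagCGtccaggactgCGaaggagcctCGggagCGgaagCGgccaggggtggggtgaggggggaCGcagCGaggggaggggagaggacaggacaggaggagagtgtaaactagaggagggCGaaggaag
Lmx1a: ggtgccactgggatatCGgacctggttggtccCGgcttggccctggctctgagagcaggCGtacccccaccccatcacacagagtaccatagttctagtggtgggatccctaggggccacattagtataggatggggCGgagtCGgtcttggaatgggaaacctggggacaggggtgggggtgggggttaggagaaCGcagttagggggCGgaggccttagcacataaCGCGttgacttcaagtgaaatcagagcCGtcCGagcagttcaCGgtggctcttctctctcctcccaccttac
Barx1: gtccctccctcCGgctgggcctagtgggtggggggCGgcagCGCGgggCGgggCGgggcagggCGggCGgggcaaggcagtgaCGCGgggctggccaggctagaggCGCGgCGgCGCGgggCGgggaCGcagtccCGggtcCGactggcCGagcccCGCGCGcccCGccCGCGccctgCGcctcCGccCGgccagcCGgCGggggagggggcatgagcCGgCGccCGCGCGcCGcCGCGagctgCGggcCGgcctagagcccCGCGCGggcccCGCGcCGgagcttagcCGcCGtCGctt
Pax8: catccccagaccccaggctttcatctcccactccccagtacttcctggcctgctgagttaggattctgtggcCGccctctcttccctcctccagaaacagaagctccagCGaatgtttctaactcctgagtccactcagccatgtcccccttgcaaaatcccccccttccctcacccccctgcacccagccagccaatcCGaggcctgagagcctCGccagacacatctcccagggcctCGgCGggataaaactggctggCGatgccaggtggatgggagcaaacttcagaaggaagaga
The Irx3 window (chr8:91801605-91801904, minus strand) held 14 CG, that of Lmx1a (chr1:167689308-167689607, plus strand) 12 and that of Barx1 (chr13:48662786-48663085, plus strand) 50, while that of Pax8 (chr2:24475550-24475849, minus strand) held 7. So the members that rose most differed widely in CG number among themselves, and only Barx1 of these 4 lay above the members' median. On both strands, the homeodomain core TAATTA was in 4.88% of the members' promoters and 5.29% of all promoters. The nuclear receptor element AGGTCA was in 2.44% and 16.3%, and the TATA box TATAAA in 4.88% and 13.6%.

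By the brightest probe of each gene, the largest rise of any member was that of Irx3, an Iroquois gene. The Iroquois (Irx) factors pattern the heart, limb and neural tube, and lie in 2 clusters: Irx1, Irx2 and Irx4 on chromosome 13, and Irx3, Irx5 and Irx6 on chromosome 8. Of the 6, 5 rose in sh4 and 4 in shCTR with retinoic acid, and none fell. With retinoic acid Irx3 read 310, 291 and 281% in sh4 and 350, 326, 298 and 338% in shCTR. Untreated Irx3 stood at 10.5, 10.5, 8 and 9.86% in sh4 and 6.90, 6.99, 5.71 and 6.15% in shCTR. Every treated array was far above every untreated one, and untreated sh4 lay above untreated shCTR on every array. Irx3 rose by 4.93 ± 0.11 in sh4 (30.4-fold, adjusted p = 5.1e-13) and by 5.67 ± 0.10 in shCTR (51.1-fold, adjusted p = 3.2e-14). Between hairpins it was higher in untreated sh4 by 0.59 ± 0.10 (adjusted p = 4.1e-04; within slides 0.61, 0.59, 0.49 and 0.68) and did not pass with retinoic acid (−0.16 ± 0.11, adjusted p = 0.38). The untreated call was lost with the normexp background correction (0.24, adjusted p = 0.11).

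Irx5, which acts with Irx3 in heart and limb, was well above background on every treated array and on no untreated one. With retinoic acid Irx5 read 2.55, 3.17 and 2.55% in sh4 and 2.89, 2.9, 2.93 and 2.77% in shCTR, and its rise was at least 6.04-fold in sh4 and at least 5.91-fold in shCTR (adjusted p = 9.4e-06 and 4.8e-07). "At least" sets the group without signal to the lowest level marked well above background on each array, or to its own level where that was higher, and the adjusted p belongs to the fitted difference. Its neighbour Irx6 averaged 2.43 ± 0.61% in sh4 and 3.09 ± 0.36% in shCTR with retinoic acid, against 3.33 ± 1.96% and 2.42 ± 0.76% untreated (SD, n = 3 for the first group and 4 for the others). It passed in no comparison. The probes of Irx5 and Irx6 lie 562 and 881 kb from that of Irx3 (chr8:94322476-94322535 in mm9), so unlike changes occurred within 1 cluster.

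On chromosome 13, Irx1 rose more than its neighbours did. With retinoic acid Irx1 read 38.6, 33.6 and 34.5% in sh4 and 33.0, 29.6, 35.0 and 35.0% in shCTR. Untreated Irx1 stood at 12.2, 10, 10.4 and 9.79% in sh4 and 7.93, 8.48, 8.37 and 6.67% in shCTR. Treated and untreated arrays did not overlap, and the rise was 1.75 ± 0.11 in sh4 (adjusted p = 6.3e-09) and 2.08 ± 0.10 in shCTR (adjusted p = 3.5e-10). In untreated cells sh4 was higher by 0.43 ± 0.10 (adjusted p = 0.0041), which the normexp correction lost (0.22, adjusted p = 0.15). Irx4, a factor of the heart ventricle, rose by 0.80 ± 0.12 in sh4 and 0.47 ± 0.11 in shCTR, and with retinoic acid was higher in sh4 by 0.43 ± 0.12 (adjusted p = 0.018). That last call was lost without treated sh4 replicate 1 (0.36, adjusted p = 0.093) or 3 (0.43, adjusted p = 0.053), and the rise in shCTR was lost with the normexp correction and the deposited log2 values (0.21 and 0.17, adjusted p = 0.071 and 0.052). Irx2 rose by 0.37 ± 0.10 in sh4 and measured −0.04 ± 0.09 in shCTR, and with retinoic acid was higher in sh4 by 0.49 ± 0.10 (adjusted p = 0.0025). Its second probe rose in shCTR too and did not pass between hairpins, as given below.

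Among the paired-like genes and Barx1, 2 of 4 rose far in both hairpins. Pitx1 sets hindlimb identity and acts in the pituitary. With retinoic acid Pitx1 read 55.6, 55.8 and 58.5% in sh4 and 88.1, 75.3, 83.5 and 86.7% in shCTR. Untreated Pitx1 stood at 3.20, 3.40, 3.47 and 3.16% in sh4 and 5.07, 4.87, 4.39 and 4.95% in shCTR. No group overlapped another. Pitx1 rose by 4.10 ± 0.07 in sh4 (17.1-fold, adjusted p = 8.5e-14) and 4.11 ± 0.07 in shCTR (17.3-fold, adjusted p = 2.0e-14). Its hairpin difference was nearly the same under both treatments, at −0.56 ± 0.07 with retinoic acid (adjusted p = 9.6e-05) and −0.54 ± 0.07 untreated (adjusted p = 3.0e-05), and the interaction was −0.01 ± 0.10.

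Barx1 acts in stomach mesenchyme and molar teeth. With retinoic acid Barx1 read 10.7, 14.5 and 14% in sh4 and 18.9, 19.2, 18.1 and 14.2% in shCTR. Untreated Barx1 stood at 1.74, 2.16, 1.65 and 1.99% in sh4 and 2.26, 1.76, 2.17 and 1.90% in shCTR. It rose by 2.79 ± 0.15 in sh4 (adjusted p = 1.4e-09) and 3.12 ± 0.13 in shCTR (adjusted p = 1.4e-10). The hairpin groups overlapped with retinoic acid, and the difference of −0.44 ± 0.15 passed narrowly (adjusted p = 0.049). It failed without any one of 10 arrays (−0.49 to −0.30, adjusted p = 0.051 to 0.24) and held without sh4 replicate 3 or shCTR replicate 4 of the retinoic acid groups, untreated sh4 replicate 2 or 3, or untreated shCTR replicate 2. It was also lost with quantile normalisation, the normexp correction, no filter on dim probes, the replicate block and only the arrays of the 2 groups. The same held with a trended and robust variance, and without the 3 arrays that the scanner software rated as needing evaluation. The other 2 genes went down. Pitx3, of midbrain dopamine neurons and the lens, read 3.43, 5.02 and 2.42% in sh4 and 0.789, 4.69, 3.51 and 2.75% in shCTR with retinoic acid. Untreated Pitx3 stood at 6.03, 6.97, 4.01 and 4.50% in sh4 and 8.98, 8.06, 6.65 and 7.03% in shCTR. It fell in shCTR (−1.64 ± 0.44, adjusted p = 0.0051), where 1 treated array was far lower than the rest, and not in sh4 (−0.60 ± 0.48, adjusted p = 0.31), with an interaction of 1.04 ± 0.65 that did not pass. Phox2a, of noradrenergic neurons, fell by 0.80 ± 0.07 in sh4 and by 0.52 ± 0.06 in shCTR. It was higher in sh4 under both treatments, by 0.28 ± 0.07 with retinoic acid (adjusted p = 0.0091, lost with the normexp correction) and 0.56 ± 0.06 untreated (adjusted p = 1.2e-05).

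Within the LIM homeodomain family, whose proteins carry LIM domains beside the homeodomain, 5 of 9 rose and 1 fell in sh4 with retinoic acid, and 4 rose and 1 fell in shCTR. Lmx1a, of the roof plate and midbrain dopamine neurons, moved with both factors. With retinoic acid Lmx1a read 95.9, 95 and 90.4% in sh4 and 205, 210, 180 and 185% in shCTR. Untreated Lmx1a stood at 8.11, 8.18, 8.38 and 7.16% in sh4 and 19.8, 23.2, 21.5 and 20.0% in shCTR. The 4 groups were wholly apart. It rose by 3.56 ± 0.08 in sh4 (11.8-fold, adjusted p = 8.7e-13) and 3.20 ± 0.08 in shCTR (9.22-fold, adjusted p = 4.1e-13). In sh4 it kept 48.2% of the shCTR level with retinoic acid (−1.05 ± 0.08, adjusted p = 1.1e-06; within slides −1.09, −1.14 and −0.99) and 37.7% untreated (−1.41 ± 0.08, adjusted p = 1.3e-08; within slides −1.29, −1.51, −1.36 and −1.48).

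Lhx2, needed for eye, forebrain and hair follicle, rose on every array. With retinoic acid Lhx2 read 61.3, 57.5 and 70.6% in sh4 and 68.4, 63.9, 64.1 and 72.2% in shCTR. Untreated Lhx2 stood at 8.89, 8.40, 9.36 and 9.80% in sh4 and 12.8, 13.7, 14.4 and 15.3% in shCTR. The hairpin groups overlapped with retinoic acid and were apart without it. Lhx2 rose by 2.79 ± 0.09 in sh4 (adjusted p = 1.2e-11) and 2.26 ± 0.08 in shCTR (adjusted p = 2.6e-11), and was lower in untreated sh4 by −0.62 ± 0.08 (adjusted p = 5.9e-05). Lhx5, of the hippocampus and forebrain, showed a like order. With retinoic acid Lhx5 read 8.34, 7.08 and 9.26% in sh4 and 11.9, 10.1, 11.7 and 12.6% in shCTR. Untreated Lhx5 stood at 2.82, 3.00, 3.53 and 3.34% in sh4 and 8.12, 7.04, 7.23 and 6.84% in shCTR. Lhx5 was lower in sh4 on every array under both treatments, by −0.49 ± 0.11 with retinoic acid (adjusted p = 0.0063) and −1.2 ± 0.10 untreated (43.4% of shCTR, adjusted p = 1.0e-06). The first of these was lost with quantile normalisation, the normexp correction or the deposited log2 values (−0.58 to −0.37 over all alternatives, adjusted p up to 0.085). It rose by 1.37 ± 0.11 in sh4 and 0.66 ± 0.10 in shCTR.

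Lhx1, of the head organiser and kidney, rose in both hairpins. With retinoic acid Lhx1 read 18, 16.7 and 15.5% in sh4 and 12.3, 15.8, 12.1 and 12% in shCTR. Untreated Lhx1 stood at 6.85, 7.48, 2.53 and 3.22% in sh4 and 5.09, 4.36, 2.78 and 3.88% in shCTR. The first 2 untreated values of each hairpin, from slides 1 and 2, were the higher ones. Lhx1 rose by 1.89 ± 0.33 in sh4 (adjusted p = 2.3e-04) and 1.72 ± 0.31 in shCTR (adjusted p = 2.3e-04). Lhx3, of the pituitary and motor neurons, was the member of this family that fell. With retinoic acid Lhx3 read 5.01, 4.98 and 5.56% in sh4 and 3.97, 3.77, 4.21 and 4.36% in shCTR. Untreated Lhx3 stood at 6.13, 9, 7.12 and 8.02% in sh4 and 12.5, 14.3, 15.1 and 15.5% in shCTR. It changed by −0.53 ± 0.12 in sh4 (adjusted p = 0.0015) and −1.81 ± 0.11 in shCTR (adjusted p = 5.1e-09), from a lower untreated level in sh4 (−0.93 ± 0.11, adjusted p = 2.1e-05). Isl1, of motor neurons and the second heart field, rose in sh4 by 0.69 ± 0.11 and measured 0.09 ± 0.10 in shCTR, and with retinoic acid was higher in sh4 by 0.60 ± 0.11 (adjusted p = 0.0013). By these probes Lhx6, Lhx9 and Lmx1b passed in no comparison, with standard errors of 0.24 to 0.72.

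**Figure D2:**
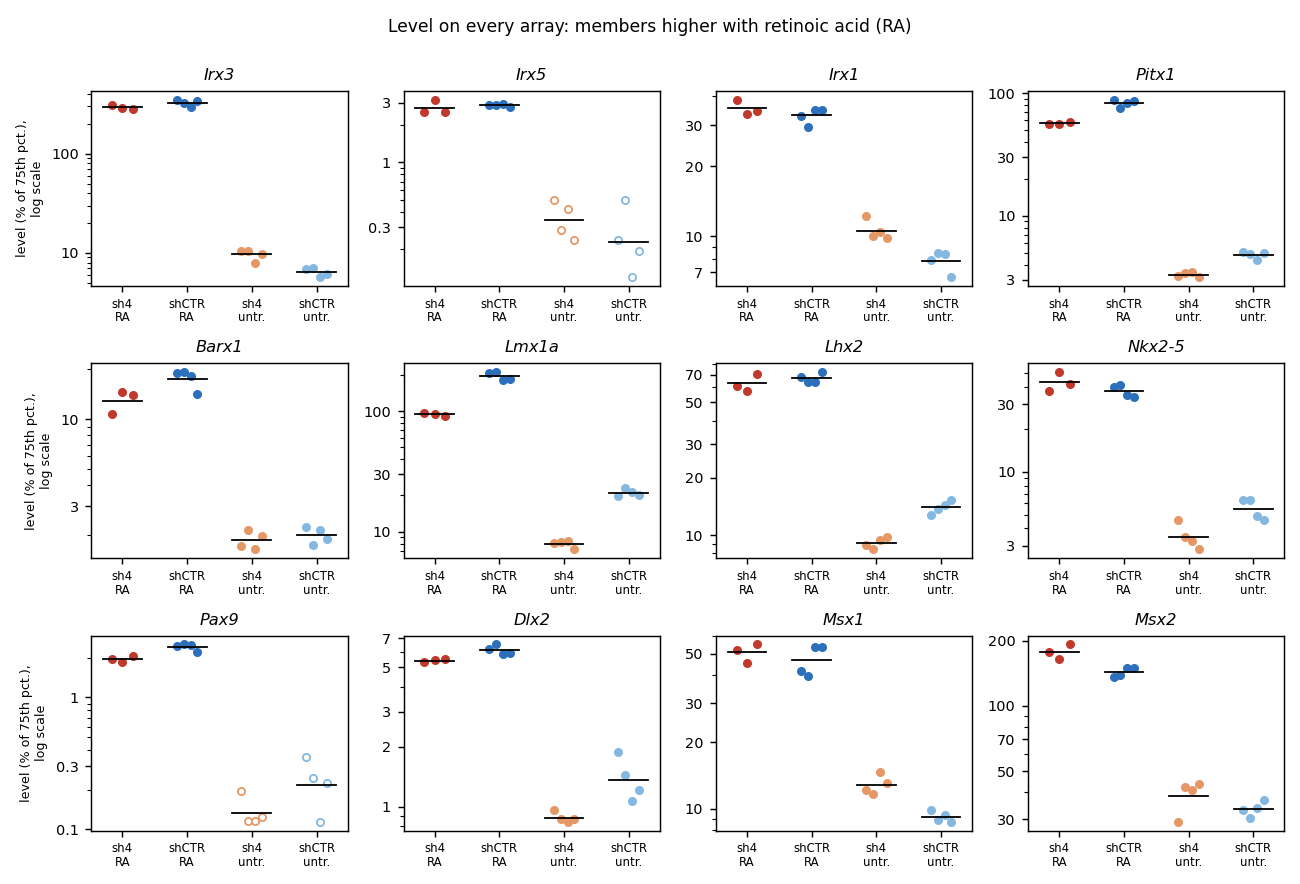
Level on every array (percent of the array's 75th percentile signal, log axis) of 12 members that rose at least 2-fold with retinoic acid in both hairpins; bars are means of log values, and open circles mark groups with no array well above background. Treated arrays lie above untreated arrays in all 12 panels, and the 4 groups of Pitx1 and Lmx1a are apart.

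The Nkx family held both the steepest fall of all members and one of the larger rises. Nkx6-3 marks stomach epithelium. With retinoic acid Nkx6-3 read 0.428, 0.487 and 1.30% in sh4 and 0.352, 0.648, 0.289 and 0.375% in shCTR, near background, with 1 of 3 and 1 of 4 arrays well above it. Untreated Nkx6-3 stood at 13.6, 11.6, 12.4 and 12.1% in sh4 and 77.7, 62.3, 78.2 and 85.1% in shCTR. The untreated groups were wholly apart, and the treated groups overlapped. Nkx6-3 passed the filter only through its untreated groups. With each treated array set to no less than its lowest level marked well above background, Nkx6-3 was at least 18.8-fold lower with retinoic acid in sh4 and at least 153-fold lower in shCTR. The fitted differences, which rest on signals near background, were −4.26 ± 0.34 (adjusted p = 9.8e-08) and −7.57 ± 0.31 (adjusted p = 8.9e-11), and its second probe, well above background on 2 treated arrays of each hairpin, gave −2.04 ± 0.16 and −4.30 ± 0.14. In untreated sh4 it kept 16.5% of the shCTR level (−2.6 ± 0.31, adjusted p = 2.3e-05; within slides −2.51, −2.42, −2.66 and −2.82), the largest hairpin difference of any member.

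Nkx2-5, an early factor of the heart, rose in both hairpins. With retinoic acid Nkx2-5 read 37.4, 50.6 and 41.9% in sh4 and 39.9, 40.7, 34.9 and 33.5% in shCTR. Untreated Nkx2-5 stood at 4.55, 3.49, 3.26 and 2.84% in sh4 and 6.37, 6.33, 4.90 and 4.58% in shCTR. Treated hairpin groups overlapped, and untreated sh4 lay just under untreated shCTR. It rose by 3.62 ± 0.17 in sh4 (12.3-fold, adjusted p = 4.5e-10) and 2.76 ± 0.16 in shCTR (6.77-fold, adjusted p = 2.5e-09), and was lower in untreated sh4 by −0.66 ± 0.16 (adjusted p = 0.006). That last call was lost without the 3 arrays that the scanner software rated as needing evaluation (adjusted p = 0.054). Nkx6-1, of motor neuron progenitors and beta cells, rose alike in both. With retinoic acid Nkx6-1 read 12.2, 11.8 and 10.1% in sh4 and 12.5, 13.4, 11.9 and 11.7% in shCTR. Untreated Nkx6-1 stood at 6.08, 7.39, 4.97 and 4.91% in sh4 and 6.51, 6.36, 5.21 and 6.01% in shCTR. The rise was 0.98 ± 0.14 in sh4 and 1.04 ± 0.13 in shCTR, and neither hairpin comparison passed.

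Nkx6-2, of the ventral neural tube and oligodendrocytes, differed between hairpins only where retinoic acid was present. With retinoic acid Nkx6-2 read 11, 11.5 and 10.2% in sh4 and 23.5, 24.3, 21.2 and 21.4% in shCTR. Untreated Nkx6-2 stood at 21.2, 22.1, 15.4 and 13.3% in sh4 and 19.7, 19.6, 14.9 and 13.8% in shCTR. Untreated values followed the slides, with slides 1 and 2 the higher pair in each hairpin. In sh4 with retinoic acid it kept 48.4% of the shCTR level (−1.05 ± 0.18, adjusted p = 8.0e-04; within slides −1.09, −1.08 and −1.05), untreated it measured 0.07 ± 0.16, and the interaction was −1.12 ± 0.24 (adjusted p = 0.0047). It fell with retinoic acid in sh4 (−0.69 ± 0.18, adjusted p = 0.004) and rose in shCTR (0.43 ± 0.16, adjusted p = 0.036). That rise was lost without any one of shCTR replicates 1 and 2 with retinoic acid and untreated shCTR replicates 3 and 4 (0.33 to 0.41, adjusted p = 0.075 to 0.11), and with quantile normalisation, the normexp correction or the deposited log2 values. Nkx2-2, of the ventral neural tube and pancreatic islets, passed in no comparison by this probe.

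Of the 6 Pax genes, 2 rose and 1 fell with retinoic acid in both hairpins. Pax8, of thyroid and kidney, fell. With retinoic acid Pax8 read 2.37, 2.21 and 1.56% in sh4 and 2.40, 3.18, 2.6 and 2.45% in shCTR. Untreated Pax8 stood at 5.33, 5.45, 5.59 and 5.10% in sh4 and 17.4, 19.1, 18.3 and 19.1% in shCTR. Untreated sh4 arrays sat between untreated shCTR and the treated arrays. Pax8 fell to 37.5% of its untreated level in sh4 (−1.41 ± 0.13, adjusted p = 4.9e-07) and to 14.3% in shCTR (−2.81 ± 0.12, adjusted p = 1.5e-10). The hairpin difference was −1.78 ± 0.12 untreated (29% of shCTR, adjusted p = 1.2e-07; within slides −1.71, −1.81, −1.71 and −1.91), and with retinoic acid it was −0.39 ± 0.13 (adjusted p = 0.05 after rounding, not under the threshold, and 0.04 with slide as a block).

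Pax9, of teeth, thymus and vertebrae, was well above background on every treated array and no untreated one. With retinoic acid Pax9 read 1.97, 1.86 and 2.06% in sh4 and 2.44, 2.53, 2.51 and 2.23% in shCTR, and it was at least 4.34-fold higher in sh4 and at least 5.23-fold higher in shCTR (adjusted p = 6.4e-08 and 6.8e-08). In shCTR the call was lost with the normexp correction (0.28, adjusted p = 0.088). Pax3 acts in the dorsal neural tube, neural crest and muscle precursors. With retinoic acid Pax3 read 18.4, 21.6 and 18.2% in sh4 and 14.6, 15.5, 12.4 and 12.5% in shCTR. Untreated Pax3 stood at 6.59, 7.52, 3.77 and 3.93% in sh4 and 6.60, 6.32, 3.74 and 3.81% in shCTR. It rose by 1.89 ± 0.27 in sh4 (adjusted p = 2.9e-05) and 1.47 ± 0.25 in shCTR (adjusted p = 1.3e-04). Pax2 of kidney and midbrain, Pax5 of B cells and Pax7 of muscle passed in no comparison. Their standard errors ran from 0.25 to 0.83, and Pax5 stayed near background at 0.148 to 1.01% over the 15 arrays.

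In the Dlx family, factors of the jaw, forebrain interneurons and placenta, 4 of 5 tested rose in sh4 and 3 in shCTR with retinoic acid, and none fell. Dlx2 rose on every array. With retinoic acid Dlx2 read 5.30, 5.45 and 5.49% in sh4 and 6.18, 6.52, 5.84 and 5.91% in shCTR. Untreated Dlx2 stood at 0.957, 0.864, 0.841 and 0.865% in sh4 and 1.88, 1.44, 1.07 and 1.21% in shCTR. It rose by 2.62 ± 0.14 in sh4 (adjusted p = 2.3e-09) and 2.16 ± 0.13 in shCTR (adjusted p = 5.8e-09), and was lower in untreated sh4 by −0.64 ± 0.13 (adjusted p = 0.0023). Dlx1, whose probe lies 10.1 kb from that of Dlx2 on chromosome 2, read 0.492, 0.428 and 0.564% in sh4 and 0.745, 0.944, 0.642 and 1.10% in shCTR with retinoic acid. Of these, 1 of 3 and 4 of 4 arrays were well above background, and no untreated array was. It was at least 1.09-fold higher in sh4 and at least 1.81-fold higher in shCTR (adjusted p = 3.0e-04 and 2.9e-04), and both calls were lost with the normexp correction (0.09 and −0.08).

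Dlx4 and Dlx3, 15.5 kb apart on chromosome 11, rose to unlike extents. With retinoic acid Dlx4 read 28.1, 34.0 and 31.1% in sh4 and 19.8, 19.4, 18.3 and 18.5% in shCTR. Untreated Dlx4 stood at 7.81, 9.23, 7.08 and 8.48% in sh4 and 10.8, 8.77, 10.9 and 9.72% in shCTR. The hairpin order thus differed between treatments, with sh4 above shCTR on every treated array and the untreated groups overlapping. Dlx4 rose by 1.93 ± 0.10 in sh4 (adjusted p = 1.9e-09) and 0.92 ± 0.10 in shCTR (adjusted p = 1.3e-06). With retinoic acid it was higher in sh4 by 0.71 ± 0.10 (adjusted p = 2.7e-04). Untreated it was lower by −0.30 ± 0.10 (adjusted p = 0.03), a call lost without untreated replicate 1 or 3 of either hairpin (−0.28 to −0.24, adjusted p = 0.072 to 0.092), with the normexp correction and with the deposited log2 values. Within slides the untreated values were −0.46, 0.07, −0.63 and −0.20. Dlx3, of placenta and epidermis, rose in sh4 (0.82 ± 0.24, adjusted p = 0.011) and measured 0.39 ± 0.23 in shCTR (adjusted p = 0.15), and without the 3 arrays rated as needing evaluation the sh4 call was lost. With slide as a block the shCTR value passed (adjusted p = 0.027). Dlx5, of bone and jaw, passed in no comparison, at 1.04 to 1.55% in its 4 group means.

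Six2 and Six3 both rose with retinoic acid. Six2 keeps nephron progenitors in the kidney. With retinoic acid Six2 read 9.54, 9.39 and 10.5% in sh4 and 12.1, 11.9, 14.3 and 14.5% in shCTR. Untreated Six2 stood at 5.40, 6.43, 6.17 and 6.14% in sh4 and 3.71, 4.13, 4.13 and 4.23% in shCTR. The hairpin order turned over: sh4 was lower on every treated array and higher on every untreated one. It rose by 0.70 ± 0.09 in sh4 (adjusted p = 1.6e-05) and 1.70 ± 0.09 in shCTR (adjusted p = 6.8e-10). Its hairpin difference was −0.42 ± 0.09 with retinoic acid (adjusted p = 0.0047; within slides −0.34, −0.34 and −0.45) and 0.57 ± 0.09 untreated (adjusted p = 1.6e-04; within slides 0.54, 0.64, 0.58 and 0.54). Both were lost with the normexp correction and with the mean of the gene's probes, and the first also with the deposited log2 values. Six3, of the anterior forebrain and eye, was dim. With retinoic acid Six3 read 0.596, 0.677 and 0.729% in sh4 and 0.700, 0.559, 0.596 and 0.878% in shCTR, well above background on all 7 arrays. No untreated array was, so the untreated hairpin difference, which passed the test, is given no fold. Six3 was at least 1.47-fold higher with retinoic acid in sh4 (adjusted p = 1.4e-05) and at least 1.33-fold higher in shCTR (adjusted p = 0.02). The shCTR call was lost without replicate 4 of either shCTR group (0.62 without the treated and 0.56 without the untreated array, adjusted p = 0.066 and 0.07). It was also lost with quantile normalisation, the normexp correction (−0.23) and the deposited log2 values. The sh4 call was lost with the normexp correction (adjusted p = 0.65), and the untreated hairpin call with that correction and the deposited log2 values.

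Both Msx genes, targets of bone morphogenetic protein signals in neural crest and limb, rose more than 2-fold with retinoic acid in both hairpins. With retinoic acid Msx1 read 52.3, 45.3 and 55.2% in sh4 and 41.8, 39.8, 54.0 and 53.9% in shCTR. Untreated Msx1 stood at 12.1, 11.7, 14.6 and 13% in sh4 and 9.83, 8.92, 9.33 and 8.74% in shCTR. It rose by 1.99 ± 0.12 in sh4 (adjusted p = 7.7e-09) and 2.35 ± 0.11 in shCTR (adjusted p = 4.4e-10), and was higher in untreated sh4 by 0.48 ± 0.11 (adjusted p = 0.0056), a call lost with the normexp correction, with the deposited log2 values and without the 3 arrays rated as needing evaluation. Msx2 followed a like course. With retinoic acid Msx2 read 178, 164 and 192% in sh4 and 136, 139, 149 and 150% in shCTR. Untreated Msx2 stood at 29.2, 42.3, 40.8 and 43.4% in sh4 and 33.0, 30.3, 33.8 and 36.9% in shCTR. It rose by 2.21 ± 0.12 in sh4 (adjusted p = 3.1e-09) and 2.1 ± 0.12 in shCTR (adjusted p = 1.7e-09). Its hairpin differences, 0.31 ± 0.12 with retinoic acid and 0.20 ± 0.12 untreated, did not pass, while the first passed with slide as a block (0.35, adjusted p = 0.032).

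Genes that mark regions of the early brain along its length moved both ways, with 3 of 5 up and 1 down in sh4 and 1 up and 2 down in shCTR. En2, of the midbrain-hindbrain boundary, fell. With retinoic acid En2 read 12.9, 14.1 and 13% in sh4 and 16.3, 16.4, 15.6 and 17% in shCTR. Untreated En2 stood at 37.7, 36.4, 39.7 and 41.2% in sh4 and 30.4, 33.8, 34.5 and 40.1% in shCTR. It fell to 34.4% of its untreated level in sh4 (−1.54 ± 0.09, adjusted p = 2.8e-09) and to 47.3% in shCTR (−1.08 ± 0.08, adjusted p = 3.7e-08). With retinoic acid it was lower in sh4 by −0.29 ± 0.09 (adjusted p = 0.027), a call lost when replicate 1 or 4 of treated sh4, or 1, 2 or 4 of treated shCTR, was left out (−0.29 to −0.27, adjusted p = 0.054 to 0.099), with quantile normalisation, with the normexp correction and with the deposited log2 values. Gbx1, of the spinal cord and forebrain, rose. With retinoic acid Gbx1 read 19.9, 19.9 and 23.4% in sh4 and 15.7, 15.1, 22.0 and 21.7% in shCTR. Untreated Gbx1 stood at 8.75, 8.23, 10 and 9.63% in sh4 and 11, 10.2, 12.2 and 12.6% in shCTR. The rise was 1.2 ± 0.14 in sh4 (adjusted p = 5.9e-06) and 0.68 ± 0.13 in shCTR (adjusted p = 4.7e-04), and neither hairpin comparison passed. With slide as a block both did (−0.33 untreated and 0.24 with retinoic acid, adjusted p = 0.0032 and 0.035).

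Vax1, of the optic stalk, rose in sh4. With retinoic acid Vax1 read 3.17, 3.1 and 2.28% in sh4 and 2.53, 3.04, 2.65 and 2.55% in shCTR. Untreated Vax1 stood at 1.99, 1.62, 1.32 and 0.861% in sh4 and 2.03, 2.91, 1.36 and 1.12% in shCTR. The rise was 1.03 ± 0.31 in sh4 (adjusted p = 0.012), lost with the normexp correction, and the value in shCTR was 0.63 ± 0.29 (adjusted p = 0.076, and 0.013 with slide as a block). Emx1, of the dorsal forebrain, was lower in untreated sh4 by −0.82 ± 0.08 (adjusted p = 3.0e-06). It rose in sh4 (0.59 ± 0.09, adjusted p = 3.5e-05, lost with the normexp correction) and fell in shCTR by a small margin (−0.19 ± 0.08, adjusted p = 0.048). The fall was lost without any one of 11 arrays (−0.19 to −0.15, adjusted p = 0.051 to 0.14) and held only without sh4 replicate 1 or shCTR replicate 4 of the treated groups, or untreated sh4 replicate 2 or shCTR replicate 2. With slide as a block it was lost too (adjusted p = 0.055). Gbx2, of the anterior hindbrain, which ES cells also express, averaged 103 ± 11.4% in sh4 and 141 ± 16.6% in shCTR with retinoic acid, against 130 ± 44.4% and 127 ± 13.5% untreated (SD), and passed in no comparison.

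Set against shCTR without retinoic acid, sh4 shows how the members stand with the hairpin in untreated cells. More members fell than rose: 5 rose and 12 fell, where 14.3% of all genes tested rose and 14.2% fell. The falls were Nkx6-3, Pax8, Lmx1a, Six3, Lhx5, Lhx3, Emx1, Nkx2-5, Dlx2, Lhx2, Pitx1 and Dlx4, and the first 5 of these, Six3 without signal above background among them, had at least a 2-fold fitted difference (3.46% of all genes). The rises were Irx3, Six2, Phox2a, Msx1 and Irx1, none of them 2-fold (3.11% of all genes), and their log2 differences ran from 0.43 to 0.59. The members' median was −0.02, beside 0.02 over all genes. Their share called in either direction was 38.6%, beside 28.5% of all genes. With slide as a block 5 members rose and 15 fell, while over all genes 4566 rose and 4461 fell (3587 and 3557 without the block). In the model without a slide term, the groups did not overlap for 16 of the 17 called, with Dlx4 the exception, and 16 of 17 had 1 sign on all 4 slides. Genes called on the same arrays are bound to show mostly such agreement, and its share over all genes was not counted. With the normexp correction 1 member rose and 10 fell, so 9.09% of the calls were rises, against 29.4% above. Over all genes 44.4% of the calls were rises with that correction, against 50.2% without it.

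Trophectoderm markers stood apart in the same comparison. All 6 rose in untreated sh4, where they summed to 4560 to 5610% against 268 to 419% in untreated shCTR. Elf5 was well above background on 2 of 4 untreated sh4 arrays and on no untreated shCTR array. Cdx2, Eomes, Krt7, Krt18 and Hand1 were so on every untreated array of both hairpins. Krt18 made up most of both sums, and Cdx2 averaged 75.1% in untreated sh4 against 4.21% in untreated shCTR. Of 9 extraembryonic endoderm markers 5 fell and none rose, and of 9 ES cell markers 2 fell. Of 10 fibroblast markers 5 rose and 3 fell. The part of these cells in the members' hairpin differences was not tested.

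**Figure D3:**
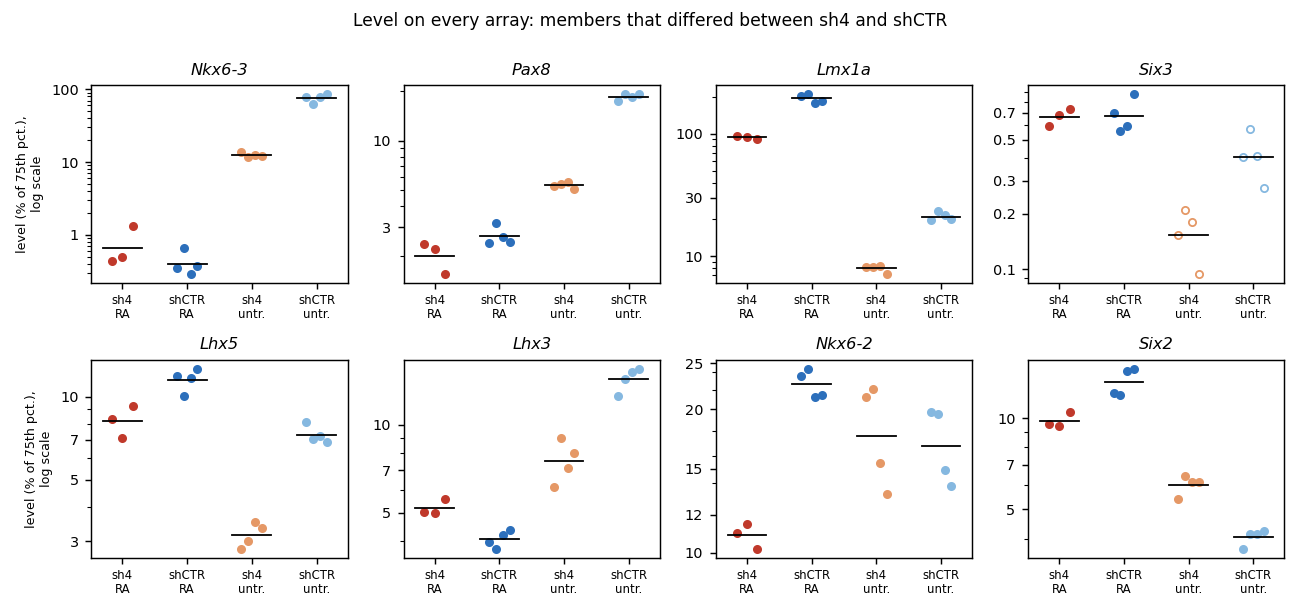
Level on every array (percent of the array's 75th percentile signal, log axis) of 8 members that differed between hairpins, with sh4 left of shCTR within each treatment; bars are means of log values, and open circles mark groups with no array well above background. Untreated sh4 lies below untreated shCTR for Nkx6-3, Pax8, Lmx1a, Lhx5 and Lhx3, treated sh4 lies below treated shCTR for Nkx6-2, and Six2 changes its order between treatments.

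With retinoic acid, the hairpins are compared during differentiation. Here 5 members rose and 7 fell, where 10.8% of all genes tested rose and 10.3% fell, and 27.3% of members were called in either direction beside 21.2% of all genes. The falls were Nkx6-2, Lmx1a, Pitx1, Lhx5, Barx1, Six2 and En2, of which Nkx6-2 and Lmx1a were at least 2-fold (2.9% of all genes). Dlx4, Isl1, Irx2, Irx4 and Phox2a rose, none 2-fold (0.522% of all genes). The median was −0.02, beside 0.04 over all genes. With slide as a block 8 rose, Lhx3, Msx2 and Gbx1 among them. Over all genes 3723 rose with that block, beside 2722 without it. All 12 calls of the model without a slide term had 1 sign on each of the 3 slides that hold both groups. This too follows largely from the selection, and its share over all genes was not counted. Within slides the members' median was 0, 0.08 and −0.09. All 9 extraembryonic endoderm markers fell in sh4 in this comparison. Of 9 ES cell markers 5 fell and Sox2 rose (0.84 ± 0.12, adjusted p = 1.7e-04), of 6 trophectoderm markers 1 rose and 3 fell, and of 10 fibroblast markers 2 rose and 1 fell. Their part was not tested.

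Lmx1a, Lhx5 and Pitx1 fell in sh4 under both treatments, and Phox2a rose under both. Whether the hairpin difference itself changed with treatment was tested as an interaction, the difference with retinoic acid minus that without, so a positive value means that sh4 stood higher relative to shCTR once treated. It passed for 17 of 44 members (38.6%, beside 20.4% of all genes), positive for 12 and negative for 5, where 10.3% and 10.1% of all genes passed. At least 2-fold values numbered 5 positive (1.99% of all genes) and 1 negative (3.92% of all genes). The median was 0.20, beside 0.01 over all genes. Those of at least 2-fold upward were Pax8 (1.39 ± 0.18, adjusted p = 9.3e-05), Lhx3 (1.28 ± 0.16, adjusted p = 8.7e-05) and Dlx4 (1.01 ± 0.14, adjusted p = 1.9e-04), besides Nkx6-3 and Six3. The fitted values of these last genes, 3.31 ± 0.46 for Nkx6-3 (2.26 ± 0.21 by its second probe) and 1.38 ± 0.37 for Six3, are no measured sizes, since Nkx6-3 was near background in both treated groups and Six3 in both untreated ones. The Six3 call was lost with the normexp correction, with the deposited log2 values and without the 3 arrays rated as needing evaluation. For Nkx6-3, Pax8 and Lhx3 the untreated level was lower in sh4 and retinoic acid lowered both hairpins, shCTR by more. The negative ones were Nkx6-2 (−1.12 ± 0.24), Six2 (−1 ± 0.13), Irx3 (−0.75 ± 0.14), En2 (−0.46 ± 0.12) and Phox2a (−0.28 ± 0.09). Of the negative ones, Six2, Irx3, En2 and Phox2a were lost with the normexp correction (−0.46, −0.43, −0.33 and −0.30), and En2 and Phox2a also with the deposited log2 values (−0.29 and −0.26). Smaller positive values passed for Nkx2-5 (0.87), Emx1 (0.79), Lhx5 (0.71), Isl1 (0.59), Lhx2 (0.53), Irx2 (0.41) and Lmx1a (0.36). That of Lhx5 was lost with the normexp correction and the deposited log2 values (0.21 and 0.18, adjusted p = 0.59 and 0.64), as was that of Lmx1a (0.11 and 0.04, adjusted p = 0.74 and 0.92), and those of Emx1 and Irx2 with the normexp correction (0.49 and 0.38, adjusted p = 0.055 and 0.08). Quantile normalisation also lost those of Lmx1a and Phox2a. That of Nkx2-5 was lost without treated sh4 replicate 3 (0.75, adjusted p = 0.05), and those of Irx2 and Phox2a without any one of 13 arrays (0.37 to 0.44 and −0.31 to −0.24), holding only without untreated sh4 replicate 1 or shCTR replicate 3 for Irx2 and treated shCTR replicate 2 or untreated shCTR replicate 3 for Phox2a. That of Lmx1a was lost without any one of 8 arrays (0.31 to 0.38, adjusted p = 0.051 to 0.087): the 3 treated sh4 arrays, treated shCTR replicates 3 and 4, untreated sh4 replicate 4 and untreated shCTR replicates 2 and 3. The 2 hairpin comparisons use separate arrays, while the interaction and the comparisons with retinoic acid share arrays with both. Without the 3 arrays rated as needing evaluation 7 members were positive and 3 negative. The calls lost were those of Isl1 (adjusted p = 0.077), Nkx2-5 (adjusted p = 0.057), Six3, Irx2, En2, Lmx1a and Phox2a. Over all genes 1852 were then positive and 2052 negative, beside 2576 and 2535 with all arrays.

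Several genes had more than 1 probe, and the probes did not always tell the same story. Among 11 members with several kept probes, calls were alike for 7 genes in untreated cells and 6 with retinoic acid between hairpins, and for 9 in sh4 and 7 in shCTR between treatments. For the interaction they were alike for 5. Lhx1 differed most. Its brightest probe spans 153 bases of the genome (chr11:84335442-84335594 in mm9), while the second (chr11:84331888-84331947) was well above background on no untreated array and averaged 14.4 ± 1.29% in sh4 and 9.26 ± 0.838% in shCTR with retinoic acid. By that probe Lhx1 was at least 31.6-fold higher in sh4 and at least 19.9-fold higher in shCTR, where the brightest gave 3.70-fold and 3.29-fold, and with retinoic acid it was higher in sh4 by 0.63 ± 0.09 (adjusted p = 2.6e-04). The second probe of Pax3 likewise gave rises of at least 2.69-fold in sh4 and 1.38-fold in shCTR, and a higher level in sh4 with retinoic acid (0.93 ± 0.16, adjusted p = 7.8e-04). For Nkx2-2 the second probe averaged 0.656 ± 0.0506% in sh4 and 1.15 ± 0.0826% in shCTR with retinoic acid, against 0.571 ± 0.205% and 0.268 ± 0.0963% untreated. It was at least 2.48-fold higher in shCTR with retinoic acid (adjusted p = 3.1e-06), while the brightest gave −0.35 ± 0.30. The second probe of Vax1 rose in both hairpins (2.17 ± 0.16 in sh4 and 1.56 ± 0.15 in shCTR), and that of Six2, at under 1%, passed in no comparison. The second probe of Irx2 rose in shCTR (0.36 ± 0.09, adjusted p = 0.0028) and gave 0.05 ± 0.09 between hairpins with retinoic acid (adjusted p = 0.82). That of Lhx6 was lower in untreated sh4 (−0.67 ± 0.13, adjusted p = 0.0012) and rose in sh4 (0.46 ± 0.14, adjusted p = 0.011). In the interaction the second probes passed for Nkx2-2 (−1.90), Lhx6 (0.74), Pax3 (0.66) and Lhx1 (0.47), and not for Irx2 (0.10) or Six2 (−0.40). The values of Nkx2-2, Pax3 and Lhx1 there rest on untreated groups near background. These second probes passed the filter only through treated groups, so a rise with retinoic acid was the only likely call for them. For Lhx1, Lhx6, Pax3, Nkx2-2, Irx2, Six2 and Vax1 the values above therefore depend on the probe. These tests, added after the data were seen, ran over all 31177 kept probes and were adjusted over them.

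**Figure D4:**
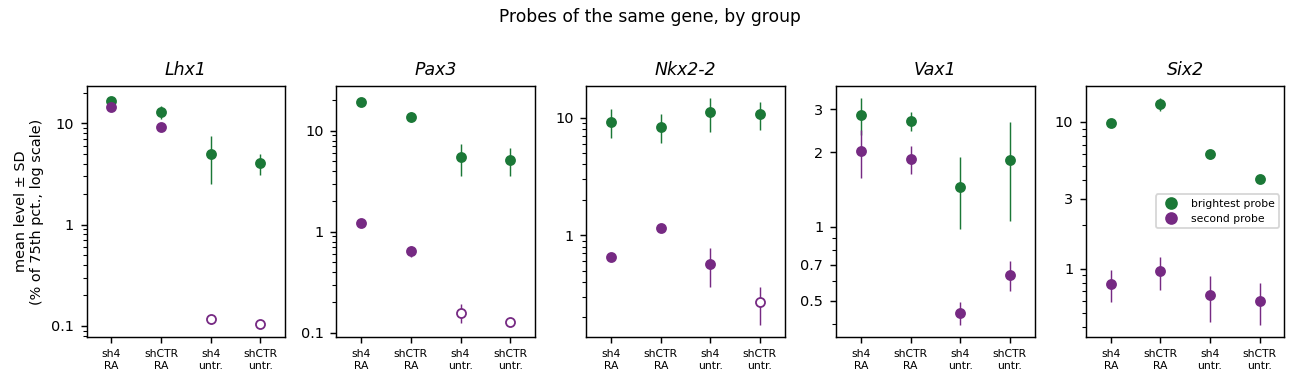
Mean level ± SD (percent of the array's 75th percentile signal, log axis) of the brightest (green) and the second (purple) probe of 5 members in the 4 groups; open circles mark groups with no array well above background. The second probes of Lhx1 and Pax3 are open in both untreated groups and filled in both treated groups, while the brightest probes change less; the levels of 2 probes cannot be compared with each other.

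Of 69 other homeobox and Pax genes outside the Hox clusters on the array, 58 were tested. With retinoic acid 29 rose and 13 fell in sh4 (50% and 22.4%, beside 27.1% and 31.6% of all genes). In shCTR 28 rose and 16 fell (48.3% and 27.6%, beside 28.9% and 33.5% of all genes). Between hairpins 7 rose and 9 fell with retinoic acid (12.1% and 15.5%, beside 10.8% and 10.3% of all genes). Untreated, 10 rose and 18 fell (17.2% and 31%, beside 14.3% and 14.2% of all genes). The shares of members and of these genes were not tested against each other. Otx2, of the anterior brain and epiblast, averaged 3.73% in sh4 and 6.76% in shCTR with retinoic acid, against 409% and 181% untreated. It fell by 6.78 ± 0.10 on the log2 scale in sh4 and by 4.74 ± 0.09 in shCTR, was higher in untreated sh4 (1.17 ± 0.09) and lower in sh4 with retinoic acid (−0.86 ± 0.10). Large rises with retinoic acid included Esx1 (3.93) and Nkx1-1 (3.80) in sh4, and Barx2 (3.60) and Nkx1-1 (3.09) in shCTR. Gsx1 (−3.74) and Evx1 (−2.95) fell in sh4, and Gsx1 (−3.11) and Dmbx1 (−2.61) in shCTR. Untreated sh4 had more Pax6 (1.31) and less Tlx2 (−2.26) and Rax (−1.57), while treated sh4 had more Esx1 (0.75) and Six4 (0.72) and less Hesx1 (−1.59) and Meox2 (−0.97). The interaction was positive for Tlx2 (1.92), Tlx1 (1.31) and Dmbx1 (1.29), and negative for Otx2 (−2.03) and Hesx1 (−1.57).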

How the data were processed

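Single-colour Agilent arrays measured RNA in 15 samples. Per the file headers, the deposited intensity values are background-subtracted processed signals from Feature Extraction 10.7.3.1. The deposited table of log2 values has a median of 7.491 on every array and correlates with the log2 mean signal of the same array at r = 0.995 to 0.998; no source here says how the authors scaled it, and it served as an alternative. Here log2 processed signals were centred on the 75th percentile of each array. Of 39429 probes, 31177 reached 3 or more arrays well above background in a group. Each gene took its brightest such probe, giving 25088 genes. A model with 4 groups was fitted with limma 3.58.1 in R 4.3.3 on all 15 arrays, with Benjamini-Hochberg adjustment. Values were given per array for members called with at least a 2-fold difference in any comparison, and other homeobox genes were named from the 3 largest changes each way, some of which are not reported here.

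The members, lists and tests were chosen with earlier results of these data known. Samples with the same replicate number on different slides correlated at −0.533 to 0.558 over 6 pairs, so numbers were not treated as pairs. Arrays of 1 slide correlated at 0.115 to 0.607 over 21 pairs; the model has no slide term, and slide as a block was an alternative. Tested on simulated data for the untreated hairpin comparison of 25088 genes, the procedure recovered 37.3%, 65.7% and 84.8% of log2 changes of 0.5, 1 and 2. The simulation changed only 67, 67 and 66 genes at these sizes, where 7144 were called in the data, and drew noise independently between arrays. These rates therefore do not carry over to the real comparison. Alternatives covered background, normalisation, filters, probe choice, slide and replicate blocks, and leaving out each array. The number of arrays limits the precision.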

Additional observations from a re-analysis of the deposited data

Results flagged for a closer look

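In groups of 4 arrays, 9 of 132 tested held 1 level far from the other 3, by the ratio of its gap to the group's range. Chance alone marks about 1 in 20 such groups. In untreated shCTR, Pax5 read 0.148% in replicate 3 (others 0.734 to 0.964%), Pax7 2.01% in replicate 2 (others 0.737 to 0.846%) and Irx6 1.27% in replicate 3 (others 2.79 to 2.81%). In untreated sh4 replicate 1, Pax9 read 0.196% (others 0.115 to 0.123%), Irx2 28.9% (others 22.4 to 23.2%), Msx2 29.2% (others 40.8 to 43.4%) and Gbx2 63.4% (others 147 to 156%). Emx1 read 2.33% in untreated sh4 replicate 2 (others 1.93 to 1.97%), and Lhx1 15.8% in treated shCTR replicate 2 (others 12 to 12.3%).

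The hairpin difference with retinoic acid minus that without passed the interaction test for 17 members. Those of Nkx6-3 and Six3 rest on groups near background and are no measured sizes. The log2 values were 3.31 for Nkx6-3, 1.39 for Pax8, 1.38 for Six3, 1.28 for Lhx3, 1.01 for Dlx4, 0.87 for Nkx2-5, 0.79 for Emx1, 0.71 for Lhx5, 0.59 for Isl1, 0.53 for Lhx2, 0.41 for Irx2 and 0.36 for Lmx1a. They were −1.12 for Nkx6-2, −1 for Six2, −0.75 for Irx3, −0.46 for En2 and −0.28 for Phox2a.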

How the results depend on the processing

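Of 109 calls of members, 74 held under every alternative, 11 were lost without at least 1 array, and 15 were lost only with the normexp correction or the deposited log2 values. With the normexp correction, 1 member rose in untreated sh4 (5 above), 3 fell in treated sh4 (7 above), and 7 interactions were positive and 1 negative (12 and 5 above). With the deposited log2 values 4 members fell in treated sh4 and 3 interactions were negative. Over all genes these numbers were 2214 and 1960, beside 2585 and 2535 with the main processing. With slide as a block, or only the arrays of the 2 groups, 8 members rose in treated sh4 (5 above). Over all genes 3723 and 2642 rose under these 2 settings (2722 above). Without the 3 arrays rated as needing evaluation, an alternative chosen after seeing the data, 7 interactions were positive and 3 negative, while over all genes 1852 were positive and 2052 negative. The members' median with retinoic acid in shCTR, 0.64, was 0.44 with quantile normalisation, 0.18 with the normexp correction, 0.18 with the deposited values and 0.47 for genes above background on all arrays. In sh4, 0.81 became 0.38 with the normexp correction and 0.31 with the deposited values, and the interaction median of 0.20 became 0.04 with the deposited values. The sign changed for 3 values. Nkx2-2 with retinoic acid in shCTR was 0.91 over all kept probes, and with the normexp correction Dlx1 was −0.08 and Six3 −0.23 there. The cause was not tested.

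Leaving out 1 array at a time gave 27 to 28 rises and 6 to 7 falls with retinoic acid in sh4, 21 to 24 and 6 to 7 in shCTR, 4 to 7 and 5 to 7 in treated sh4 against shCTR, 5 to 6 and 12 in untreated sh4 against shCTR, and 9 to 12 and 4 to 5 interactions. The medians in that order were 0.75 to 0.93, 0.54 to 0.68, −0.03 to 0.12, −0.15 to 0.05 and 0.14 to 0.35. With the replicate block, 27 members rose and 6 fell with retinoic acid in sh4, 25 and 6 in shCTR, 7 and 6 in treated sh4 against shCTR, 5 and 13 untreated, and 12 and 5 interactions. Over all genes the normexp correction called 4623 against 7144 in untreated sh4, 3360 against 5307 in treated sh4 and 3013 against 5111 interactions. It moved the median of all genes with retinoic acid in shCTR to −0.23 (−0.12 above) and the share of calls that were rises to 36.5% (46.3% above). Of the members' calls in treated sh4, 57.1% were rises with the normexp correction and 60% with the deposited values (41.7% above), and 87.5% of interactions were positive (70.6% above). Signal near background limits the changes of Pax9, Dlx1, Six3, Irx5 and Nkx6-3 with retinoic acid to lower bounds.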
